A study of Homo sapiens with 4 samples.

Results

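The receptors of the EGFR family and their EGF-type ligands were examined in SB cells, which are SAS tongue squamous carcinoma cells with a stable shRNA against AEG-1, and in SCt control cells. The genes were chosen by name: the receptors EGFR, ERBB2 and ERBB3 and the ligands AREG, EREG, TGFA, HBEGF, BTC, EPGN and NRG1. They are 10 of 27953 genes on the array, a count in which an accession without a RefSeq match stands as a gene of its own. Of the array's 34127 probes, 17 read the members, each matched through the RefSeq accession for which it was designed. On each of 4 two-colour Agilent arrays, RNA from SB cells (pLKO.1-LYRIC shRNA-B, LYRIC being another name of AEG-1), labelled red, was hybridized together with RNA from SCt cells (pLKO.1 vector), labelled green. The control is the vector by the sample labels and a scrambled shRNA by the methods. Both lines were SAS cells transduced with lentivirus and kept as stable clones after 14 days of puromycin at 2 μg/ml, and each labelling used 15 μg of total RNA. The labels call the arrays biological replicates but do not say whether each came from a separate culture, so the p-values may measure technical spread only. The dyes were exchanged on 0 of the arrays, so a probe's preference for a dye cannot be told apart from the knockdown. All arrays set the same SB line against the same SCt line. Other effects of this shRNA, or other differences between the lines, therefore cannot be told apart from the knockdown either.

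Receptors of this family are tyrosine kinases that pair after a ligand binds. EGFR is bound by AREG, EREG, TGFA, HBEGF, BTC and EPGN. ERBB2 has no known ligand of its own and acts as a partner, and ERBB3, whose kinase is weak, is bound by NRG1. The ligands are made as membrane-bound precursors and are released by metalloproteases of the ADAM family, so that a carcinoma cell can stimulate itself and its neighbours. Signals pass through adaptors to RAS and ERK and to PI3K, switch on a set of early response genes, and are damped by ubiquitin ligases and feedback inhibitors. In squamous carcinomas EGFR and several of its ligands are often abundant. The comparison asks whether the level of any of these transcripts differs between SB cells, in which AEG-1 is lowered, and SCt cells.

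Promoters of 4 of the genes are shown because the results below turn on these genes: EGFR, the receptor with the lowest p-value, and AREG, EREG and HBEGF, ligands whose levels moved from array to array. Each line holds the 250 bases before a RefSeq transcription start (GRCh38.p14), written 5′ to 3′ on the strand of the gene, with capitals for matches to any of 5 motifs. The positions are chr7:55018767-55019016 (+) for EGFR, chr4:74444886-74445135 (+) for AREG, chr4:74364895-74365144 (+) for EREG and chr5:140346604-140346853 (−) for HBEGF.
EGFR: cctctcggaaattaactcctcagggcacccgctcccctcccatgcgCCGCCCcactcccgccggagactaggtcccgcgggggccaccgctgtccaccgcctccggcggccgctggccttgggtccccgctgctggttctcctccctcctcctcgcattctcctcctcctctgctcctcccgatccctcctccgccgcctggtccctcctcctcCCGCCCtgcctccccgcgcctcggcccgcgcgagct
AREG: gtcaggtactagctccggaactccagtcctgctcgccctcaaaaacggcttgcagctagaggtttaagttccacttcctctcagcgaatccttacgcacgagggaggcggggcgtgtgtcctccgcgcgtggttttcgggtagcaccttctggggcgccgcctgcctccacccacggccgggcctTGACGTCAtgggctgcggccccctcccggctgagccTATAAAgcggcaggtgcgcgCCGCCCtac
EREG: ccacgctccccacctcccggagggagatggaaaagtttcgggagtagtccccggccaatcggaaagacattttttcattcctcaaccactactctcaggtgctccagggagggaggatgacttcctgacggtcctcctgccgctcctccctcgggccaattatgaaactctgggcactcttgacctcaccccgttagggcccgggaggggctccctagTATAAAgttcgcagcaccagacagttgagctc
HBEGF: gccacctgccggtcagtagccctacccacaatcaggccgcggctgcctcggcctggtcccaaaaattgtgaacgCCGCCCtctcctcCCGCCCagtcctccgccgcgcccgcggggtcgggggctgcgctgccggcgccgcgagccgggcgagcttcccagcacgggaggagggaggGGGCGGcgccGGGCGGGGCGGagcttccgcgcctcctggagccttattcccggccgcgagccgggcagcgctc

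The motifs searched, on both strands, were the Sp1 box GGGCGG, the TATA box TATAAA, the cyclic AMP response element TGACGTCA, the AP-1 element TGANTCA and the κB consensus. Of 35116 promoter windows of this length, 42.6% held the Sp1 box, 10.7% the TATA box, 1.65% the cyclic AMP response element, 6.57% the AP-1 element and 9.96% the κB consensus. The EGFR window shown held Sp1 boxes that began 204 and 36 bases before the start and none of the other motifs. A second EGFR start in the table, whose window (chr7:55109589-55109838) is not shown, had 2 AP-1 elements, 2 TATA boxes and 0 Sp1 boxes. The AREG window held a cyclic AMP response element 65 bases before the start, a TATA box at 29 and an Sp1 box at 9. The EREG window held only a TATA box, 32 bases before the start, and the HBEGF window held 5 Sp1 boxes, a pair of which share a base. Among the members' windows not shown, that of BTC held κB matches that began 90 and 23 bases before the start. A TGFA window held a κB match at 219. EPGN, EREG and AREG follow each other on chromosome 4 with 0 genes between them in the RefSeq table, and BTC follows after 2 non-coding genes. A match is a description of the letters and not a measured binding site.

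AEG-1, listed as MTDH, was lower in the channel of SB cells on all arrays, with log2 ratios of SB over SCt cells of −3.18, −3.01, −3.12 and −3.41 on arrays 1 to 4 and an adjusted p of 5.22e-10 from limma. Of 43118 non-control spots per array, 85.4% to 90.3% were well above background in SB cells and 84.7% to 90.0% in SCt cells. Across probes, the log2 ratios of pairs of arrays correlated with Pearson r between 0.05 (arrays 1 and 4) and 0.46 (arrays 1 and 3), a description over probes, which are not independent. The 10 squamous epithelial markers were detected in both lines throughout. So were 3 of 6 fibroblast, 4 of 4 leukocyte and 4 of 4 endothelial markers, while COL3A1 and LUM were so on none. None of the markers that could be tested was called different between the lines. COL3A1, LUM and PDGFRB were too weak to be tested.

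None of the 9 receptors and ligands that could be tested was called different between SB and SCt cells. A gene was called at an adjusted p under 0.05 from limma over 28507 probes, with the brightest probe standing for the gene, and 3.51% of all 23485 genes were called by that rule (1.26% higher and 2.26% lower in SB cells), as were 3.7% of the probes. Of the members, 2 had an unadjusted p under 0.05, EGFR and BTC, beside 18.1% of all genes, and the methods' t-test also called 0 members after adjustment. The log2 ratios of the 9 genes lay between −0.05 and 0.21, with a median of 0.02 beside 0.01 for all genes. Their median size was 0.05 beside 0.07 for all genes. All 9 of the 95% intervals lay between −0.22 and 0.37. EPGN, a ligand of EGFR, was the tenth gene. Its signal was 52 to 66 in SB cells over a local background of 45 to 50, and 41 to 48 in SCt cells over 28 to 34. It was not well above background in either channel on any array and has no level here.

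**Figure D1:**
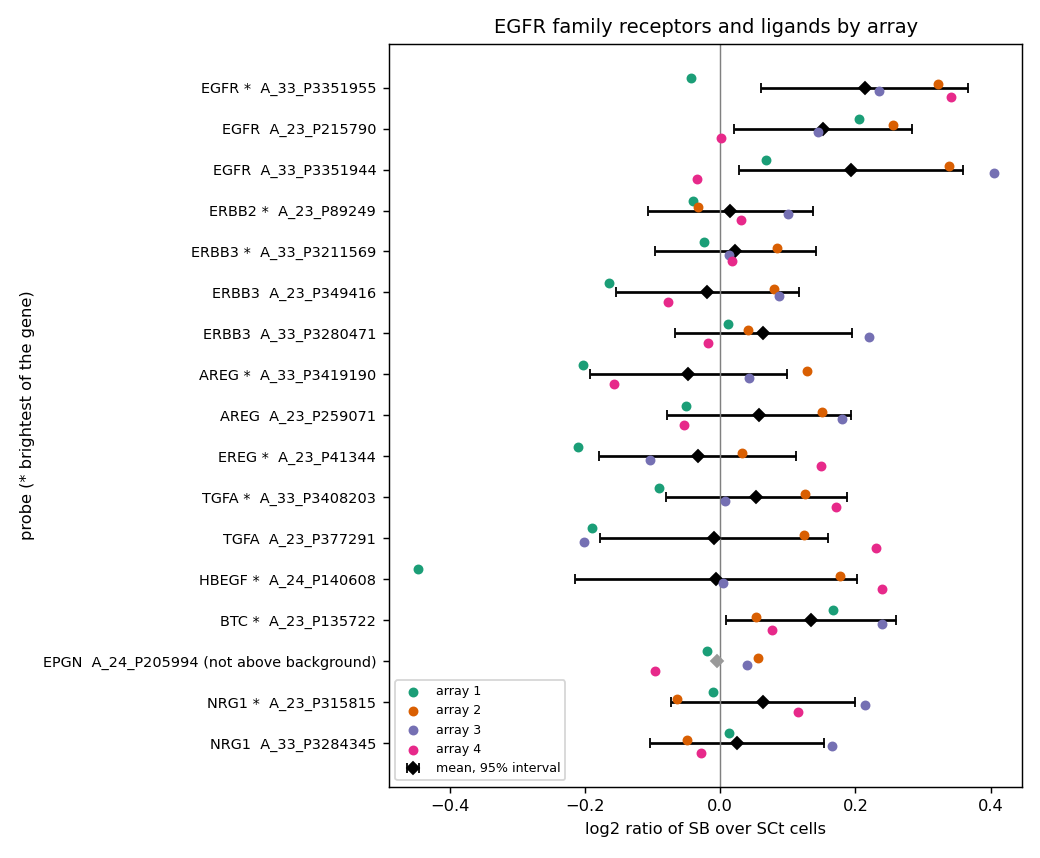
Log2 ratio of SB over SCt cells (x axis) for each of the 17 probes (y axis, the brightest of a gene marked with an asterisk). Coloured points are the 4 arrays, and the diamond and bar are the mean and limma's 95% interval. EPGN, which was not above background, has a grey diamond and no interval. The points of EGFR lie mostly to the right of 0, those of BTC all do, and those of HBEGF spread from −0.45 to 0.24.

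EGFR was read by 3 probes. The brightest, A_33_P3351955, was designed on a shorter transcript variant that lacks the kinase domain, and gave log2 ratios of −0.04, 0.32, 0.23 and 0.34 on arrays 1 to 4. The probe of the full-length variant, A_23_P215790, was spotted 10 times per array and gave 0.21, 0.26, 0.14 and 0.00. The dimmest, A_33_P3351944, also designed on a short variant, gave 0.07, 0.34, 0.40 and −0.03. The array that stood lowest was thus array 1 for the brightest probe and array 4 for the other probes, and arrays 2 and 3 were above 0 for all of them. The means were 0.21 ± 0.18, 0.15 ± 0.11 and 0.19 ± 0.21 (SD, n = 4 arrays), with adjusted p-values of 0.121, 0.197 and 0.191 from limma. The brightest probe's mean is a 1.16-fold higher level in SB cells, with a 95% interval of 1.04 to 1.29. Without array 1, the mean of this probe was 0.30 and passed the threshold (limma, adjusted p = 0.0441). Without array 2, 3 or 4, its mean was 0.18, 0.21 and 0.17 and did not pass (limma, adjusted p = 0.382, 0.360 and 0.179). The largest difference between EGFR probes was 0.06 (two-sided exact sign-flip test, p = 0.625), in a design whose smallest possible p is 0.125.

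ERBB2, the shared partner receptor, was read by 1 probe spotted 10 times per array. Its log2 ratios were −0.04, −0.03, 0.10 and 0.03, and its mean was 0.01 ± 0.07 (SD, n = 4 arrays; limma, adjusted p = 0.920, 95% interval −0.11 to 0.14). The arrays fell on both sides of 0, and 83.5% of genes had an SD between arrays at least as large.

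ERBB3, the receptor of NRG1, was read by 3 probes. The brightest, designed on the short secreted variant, gave −0.02, 0.08, 0.01 and 0.02, with a mean of 0.02 ± 0.05 (SD, n = 4 arrays; limma, adjusted p = 0.870, 95% interval −0.10 to 0.14). The other probes had means of −0.02 and 0.06. Their intervals ran from −0.15 to 0.12 and from −0.07 to 0.19. The intervals cover the spread between arrays after loess and make no allowance for dye preference.

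AREG and EREG, neighbouring genes whose products bind EGFR, did not differ between the lines beyond the spread of the arrays. The brightest AREG probe gave −0.20, 0.13, 0.04 and −0.16, a mean of −0.05 ± 0.16 (SD, n = 4 arrays; limma, adjusted p = 0.760). The other AREG probe gave a mean of 0.06 ± 0.13 (SD, n = 4 arrays; limma, adjusted p = 0.679). Both probes were below 0 on arrays 1 and 4 and above 0 on arrays 2 and 3. EREG gave −0.21, 0.03, −0.10 and 0.15, a mean of −0.03 ± 0.16 (SD, n = 4 arrays; limma, adjusted p = 0.838, 95% interval −0.18 to 0.11).

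TGFA, another ligand of EGFR, gave −0.09, 0.13, 0.01 and 0.17 at its brightest probe. The mean was 0.05 ± 0.12 (SD, n = 4 arrays; limma, adjusted p = 0.698), and that of the other probe was −0.01. HBEGF, which binds heparin as well as EGFR and ERBB4, gave −0.45, 0.18, 0.00 and 0.24. Its mean was −0.01 ± 0.31 (SD, n = 4 arrays; limma, adjusted p = 0.980, 95% interval −0.22 to 0.20). Array 1 was the lowest, and 2.55% of genes had an SD of the ratio at least as large. Without array 1, the mean of HBEGF was 0.14 (limma, adjusted p = 0.337).

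BTC, a ligand of EGFR and ERBB4, was higher in SB cells on 4 of 4 arrays, with log2 ratios of 0.17, 0.05, 0.24 and 0.08. It was the only member with the same sign on all arrays at its brightest probe, beside 26.5% of all genes. Its mean was 0.13 ± 0.09 (SD, n = 4 arrays), with an adjusted p of 0.234 from limma and a 95% interval of 0.01 to 0.26. NRG1, the ligand of ERBB3 and ERBB4, gave −0.01, −0.06, 0.21 and 0.11 at its brightest probe, with a mean of 0.06 ± 0.13 (SD, n = 4 arrays; limma, adjusted p = 0.636). Its other probe had a mean of 0.02. Over the 9 pairs of probes of one gene, no difference had a sign-flip p (exact, two-sided) adjusted by Benjamini-Hochberg below 0.844.

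The arrays differed in how many members were higher in SB cells. At the brightest probes this was 1 of 9 on array 1, BTC, while on arrays 2, 3 and 4 it was 7, 8 and 8 of 9. The count on array 1 depended on the probe taken. There the dimmer probes gave 0.21 and 0.07 for EGFR, −0.16 and 0.01 for ERBB3 and 0.01 for NRG1. Those of AREG and TGFA gave −0.05 and −0.19. Of all genes, 50.9%, 52.1%, 55.4% and 52.2% were higher on arrays 1 to 4. The members' median log2 ratio was −0.04, 0.08, 0.04 and 0.11 in the same order.

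The levels of EREG, HBEGF and, to a smaller extent, AREG moved from array to array in both lines together, a pattern that was singled out after the values were seen. Levels here are log2 intensities of a single probe after loess and Aquantile normalization, and levels of different probes are not set against each other. EREG stood at 12.78, 14.01, 14.21 and 12.65 in SB cells on arrays 1 to 4 and at 12.99, 13.98, 14.32 and 12.50 in SCt cells. It was thus high on arrays 2 and 3 and low on arrays 1 and 4 in both lines. HBEGF stood at 9.51, 11.49, 11.20 and 11.06 in SB cells and at 9.96, 11.31, 11.19 and 10.82 in SCt cells. It was low in both lines on array 1 alone. AREG stood at 14.04, 14.90, 15.08 and 14.45 in SB cells and at 14.24, 14.77, 15.04 and 14.61 in SCt cells at its brightest probe, lowest on array 1 and highest on array 3 in both lines. Such movement was not particular to these ligands. The brightest EGFR probe was lowest on array 4 in both lines. The mean of both lines at that probe spanned 0.79 log2 units, beside 0.92 for AREG and 1.69 for EREG. The EGFR probe spotted 10 times per array spanned 0.34, with 10.28, 10.62, 10.62 and 10.30 on arrays 1 to 4. The EGFR probes thus did not share an order of the arrays.

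**Figure D2:**
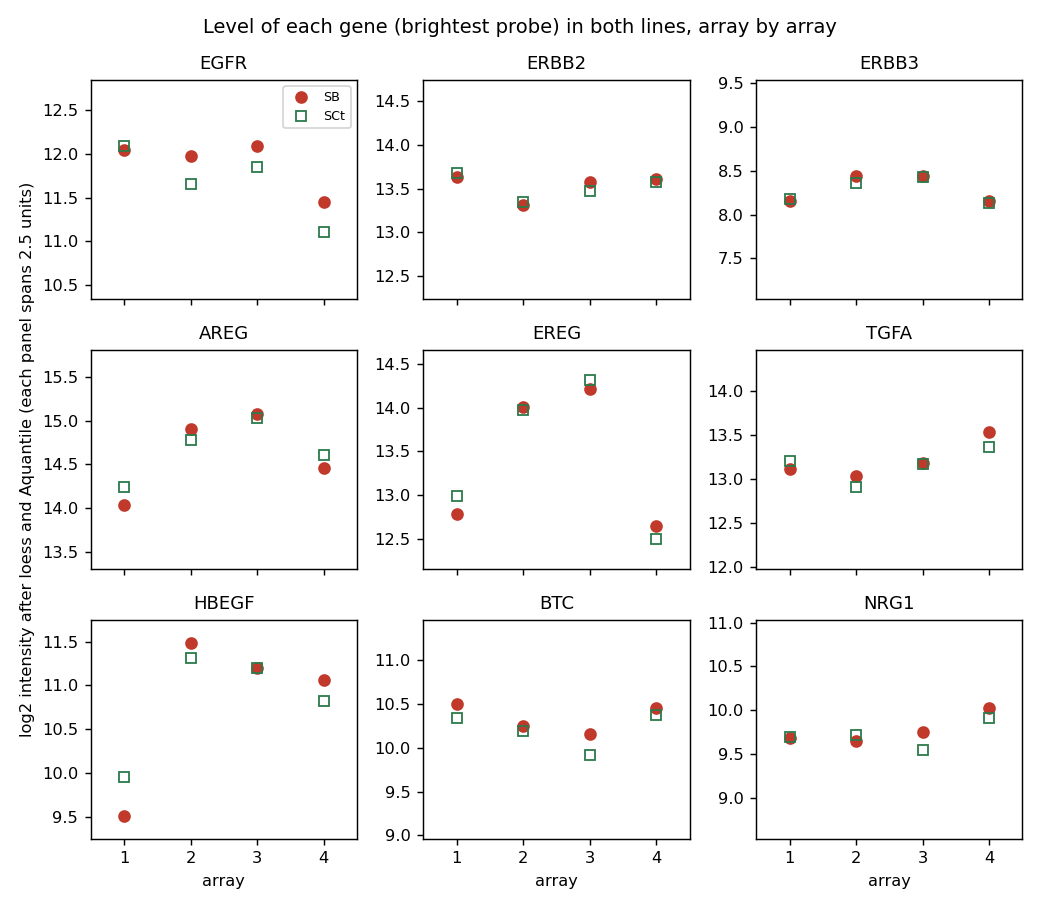
Log2 intensity after loess and Aquantile normalization (y axis, each panel spanning 2.5 units) on arrays 1 to 4 (x axis) in SB cells (filled circles) and SCt cells (open squares), for the brightest probe of each of the 9 genes. In all panels the mean of both lines spans more between arrays than the lines differ on any array. The span is widest for EREG and HBEGF, followed by AREG and EGFR.

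The mean of both lines spanned 3.22-fold between the highest and the lowest array for EREG, 3.18-fold for HBEGF and 1.89-fold for AREG. The SD of this shared level between arrays was 0.82 for EREG and 0.75 for HBEGF. Of all genes, 0.290% and 0.458% had an SD at least as large, and the median gene had 0.15. For AREG the SD was 0.40 at the brightest probe and 0.32 at the other probe, which lies at a separate spot and was also lowest on array 1. The other brightest probes of members had an SD between 0.14 (ERBB2) and 0.35 (EGFR). At the EGFR probe spotted 10 times per array the SD was 0.19. With levels centred on each array's median in place of Aquantile, EREG (0.71) and HBEGF (0.75) kept the highest SDs of the members, whereas AREG and the brightest EGFR probe were both at 0.32 and TGFA at 0.30. Without array 1 the SD of HBEGF was 0.23, so that its spread rests on that array. That of AREG was 0.26 without array 1, whereas that of EREG stayed between 0.73 and 0.91 with any array left out. Both channels of a spot share its printing and washing, and EREG and HBEGF were each read at 1 spot per array. Among the 999 probes with 10 spots each, levels of spots on the same array had a median SD of 0.11 to 0.14. The source of these differences between arrays was not tested.

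**Figure D3:**
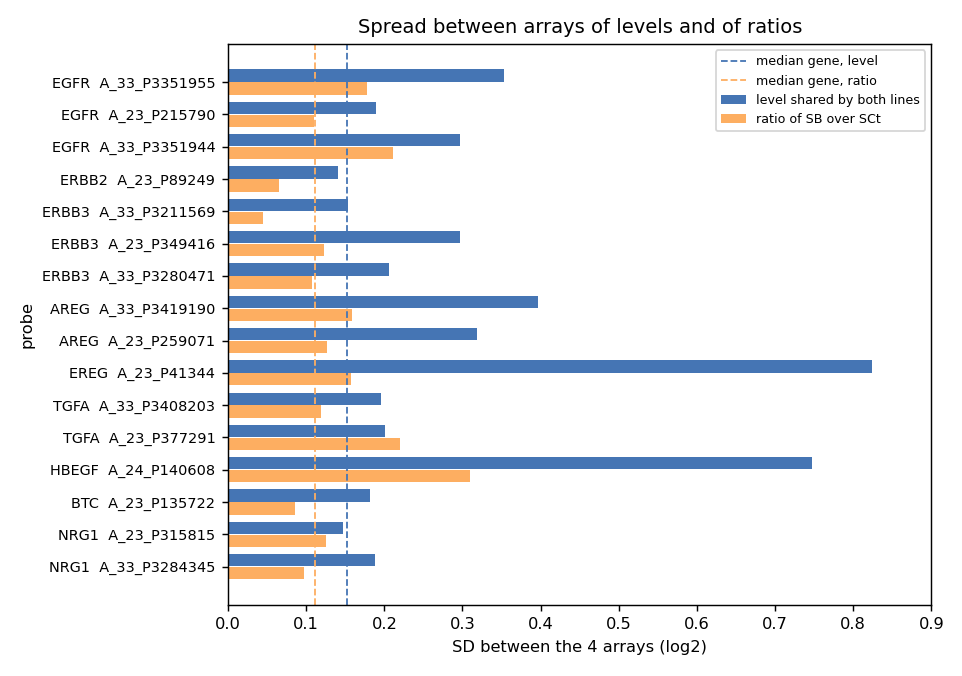
SD between the 4 arrays (x axis, log2 units) of the level shared by both lines (blue bars) and of the ratio of SB over SCt cells (orange bars) for the 16 tested probes (y axis), with dashed lines at the median gene. EREG and HBEGF have level SDs of 0.82 and 0.75, beside ratio SDs of 0.16 and 0.31.

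Of the rest of the pathway, 8 of 74 genes in 5 lists were called, 1 higher and 7 lower in SB cells, where 3.51% of all genes were called, 1.26% higher and 2.26% lower. The lists were chosen with earlier results of these data known, so setting these counts beside those shares is no test of the lists. None of the 5 other receptors and ligands was called. The receptor ERBB4 was well above background on 4 arrays in SB cells but on 2 in SCt cells, so that its log2 ratio of 0.11 rests on a weak channel, and it left the test when both channels had to pass. The log2 ratio was −0.06 for EGF and, for the neuregulins, −0.06 for NRG2, 0.12 for NRG3 and 0.19 for NRG4 (limma, adjusted p = 0.157 for NRG4, the lowest of these). None of the 20 adaptors and proximal effectors was called either, and their ratios lay between −0.14 and 0.18.

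Of the 10 genes for shedding and trafficking of the ligands, 1 was called. TIMP3, an inhibitor of ADAM17, fell in SB cells, with −0.91, −0.36, −0.43 and −0.26 on arrays 1 to 4 and a mean of −0.49 ± 0.29 (SD, n = 4 arrays; limma, adjusted p = 0.0124). Its call was lost without array 3, under the scanner software's ratios or the series table, and by the methods' t-test. ADAM17 itself, the main sheddase of AREG, TGFA and HBEGF, was at 0.10, 0.11, 0.33 and 0.40 and missed the threshold (limma, adjusted p = 0.0769). It was named after its value was seen.

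Of the 21 genes for attenuation and recycling of the receptors, 1 was higher and 1 lower. CBLB, a ubiquitin ligase that marks activated EGFR for degradation, rose in SB cells, with 0.50, 0.43, 0.44 and 0.46 and a mean of 0.46 ± 0.03 (SD, n = 4 arrays; limma, adjusted p = 0.000853). Its second probe also passed, at 0.25 (limma, adjusted p = 0.0352). The related ligase CBL, named after its values were seen, lay at −0.23, −0.17, −0.19 and −0.22 and missed the threshold (limma, adjusted p = 0.0634). STAM2, an adaptor of endosomal sorting, fell by 0.30 on the log2 scale, with −0.24, −0.32, −0.47 and −0.17 (limma, adjusted p = 0.0227), a call lost without array 1, 2 or 3 and by the methods' t-test.

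Of 18 transcripts that EGFR and ERK signalling is known to induce, 5 were lower and 0 higher in SB cells, where 2.26% of all genes were called lower. This list too was chosen with earlier results known, so the count is a description and no test of the list. The list's median log2 ratio was −0.13, beside 0.01 for all genes. Under median centring in place of loess, 4 genes of this list were called, 2 higher and 2 lower. PHLDA1, an early response gene, lay at −0.45, −0.55, −0.61 and −0.45, with a mean of −0.51 ± 0.08 (SD, n = 4 arrays; limma, adjusted p = 0.000558). DUSP6, the phosphatase that removes activating phosphates from ERK, lay at −0.51, −0.37, −0.30 and −0.49, with a mean of −0.42 ± 0.10 (SD, n = 4 arrays; limma, adjusted p = 0.00292). These genes were below 0 on all arrays.

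EGR1, a transcription factor of the early response, fell by 0.31 on the log2 scale with an SD of 0.03 between the arrays (limma, adjusted p = 0.00852). The early response gene IER2 fell by 0.30 (limma, adjusted p = 0.0177). VEGFA, the angiogenic growth factor, was the fifth and was named after its value was seen, at −0.75, −0.32, −0.31 and −0.21 (limma, adjusted p = 0.0203). FOS and CCND1 of the same list lay at −0.01 and −0.03 and were not called, and these were named after their values were seen. PHLDA1 lost its call only under the methods' t-test, as did CBLB. DUSP6 lost it there and under median centring, where it was at −0.13. EGR1 lost it in these settings, at −0.06 under median centring, and without array 2 or 3. IER2 and VEGFA lost it by the methods' t-test, without array 1, 2 or 3, under the scanner software's ratios and under the series table, and IER2 under median centring as well, at −0.09. With each array left out, the 74 genes gave 5 calls without array 1, 4 without array 2, 3 without array 3 and 11 without array 4. Activity of the receptors was not measured.

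**Figure D4:**
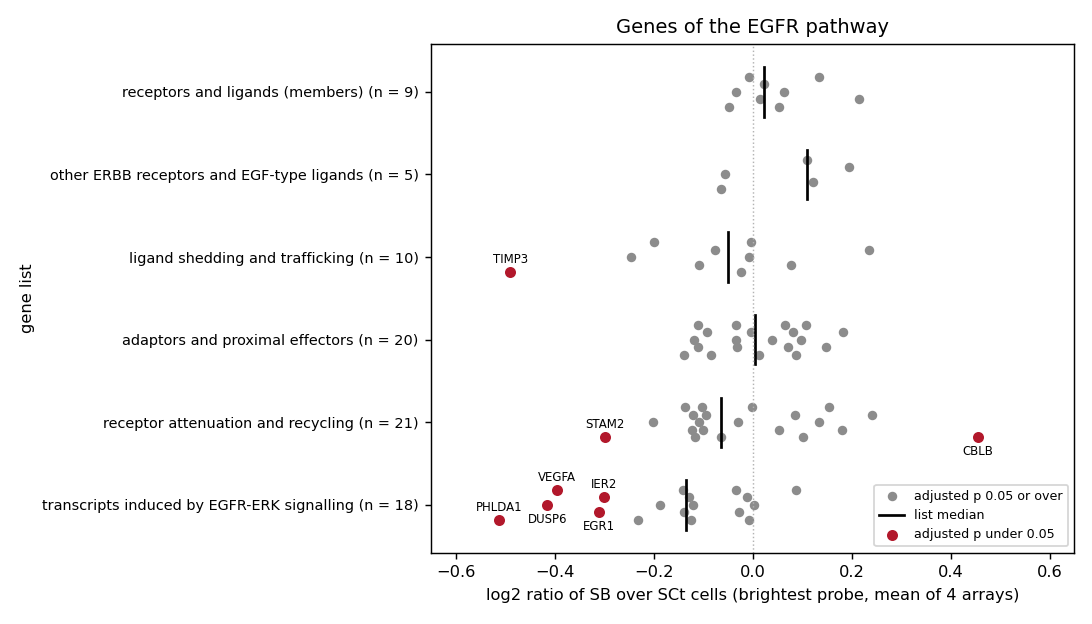
Mean log2 ratio of SB over SCt cells (x axis) of each gene, at its brightest probe, in the receptors and ligands and in 5 lists of pathway genes (y axis). Red points passed an adjusted p of 0.05, grey points did not, and black bars are list medians. The 5 red points of the transcripts induced by EGFR and ERK all lie left of 0, and the receptors and ligands have none.

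The result for the receptors and ligands depended on the normalization within arrays. With each array centred on its median in place of loess, 5 of the 9 were called, all higher in SB cells: EGFR at 0.34 (limma, adjusted p = 0.00606), ERBB2 at 0.21, AREG at 0.24, TGFA at 0.23 and BTC at 0.22. In that setting 31.9% of all genes were called. Of the called probes, 5599 were higher and 3340 lower, beside 376 higher and 679 lower after loess. EGFR, ERBB3, TGFA, BTC and NRG1 were above 0 under all alternatives tried, whereas AREG, EREG and HBEGF were below 0 as reported above and above 0 after median centring.

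**Figure D5:**
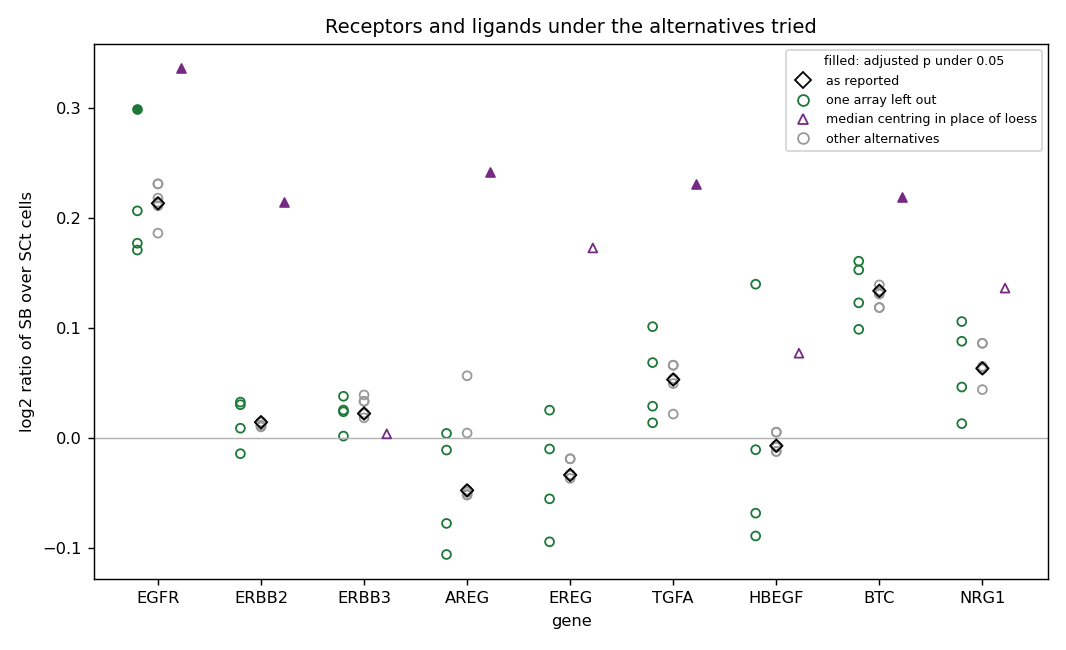
Log2 ratio of SB over SCt cells (y axis) of the 9 genes (x axis) as reported (black diamonds), with one array left out (green circles), with median centring in place of loess (purple triangles) and under the other alternatives (grey circles). Filled symbols passed an adjusted p of 0.05. Median centring lies above the other values for most genes and gives 5 filled symbols, and EGFR without array 1 gives another.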

How the data were processed

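The authors deposited, for each array, the scanner output of Agilent Feature Extraction (10.5.1.1 per the labels' processing notes): each spot's median red and green intensities and its local background, not normalized, flags for outliers and for spots well above background, and the software's log10 ratio. They also deposited a series table on a log2 scale. Its values equalled the mean over spots of the software's processed log ratios to within 0.001 for 98.7% to 99.1% of probes per array.

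The intensities were read into limma 3.58.1 (R 4.3.3). Normexp (offset 50) removed the background, outlier spots were dropped (1.89% to 2.71% per array), each array's ratios were loess-normalized, and spots of a probe were averaged. The offset makes ratios of weak spots smaller. Probes detected over background in SB cells or in SCt cells on all 4 arrays, with at least 2 values, were retained (28507). Mean log2 ratios were tested against 0 with lmFit and eBayes, two-sided, with Benjamini-Hochberg adjustment over all retained probes. The steps were also run on simulated arrays with differences of known size and noise drawn independently for each probe and array. Those arrays lack the uneven agreement between the arrays of this study, so they do not show how reliable the calls are here. No spot was saturated. The number of arrays limits the precision.

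Probes were named through RefSeq accessions (GRCh38.p14), which matched 24826 of 34127. The other 9301 kept their accession as a name, and each such name counts as a gene in the counts and shares of all genes. Promoter windows and gene order come from RefSeq in that build. No probe positions are given, since the array follows an earlier build. The members and lists were chosen with earlier results of these data known. Named are all members, MTDH, every other ERBB receptor and ligand, the called genes of each list (at most the 4 with the smallest p), and the 3 genes nearest to EGFR and to BTC.

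Alternatives tried were leaving out each array, the methods' t-test, eBayes with trend and robust settings, a gene's mean or any probe, outliers kept, no filter or a filter on both channels, Aquantile after loess, median centring, normexp without offset, no background correction, the series table, and the software's own ratios. With 1 slide and 1 scan, neither could serve as a block.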

Additional observations from a re-analysis of the deposited data

How the results depend on the processing

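Of 160 values of single genes under the alternatives, those of MTDH included, 143 kept their direction and their side of the threshold. Many of these could not change direction, so the count is no measure of robustness. The filters on dim probes, Aquantile, the eBayes options and the t-test leave a given probe's mean ratio as it was. The series table gave nearly the same ratios as the software. The deposited series table gave 698 called probes in place of 1055 and the scanner software's ratios 756, and both gave 5 pathway genes in place of 8. Median centring gave 8939 probes, 5 members in place of 0, and 19 pathway genes, 12 higher and 7 lower. The methods' t-test, which uses no information from other probes, gave 0 probes (3936 at an unadjusted p under 0.05) and 0 pathway genes (17 unadjusted), and MTDH was no longer called (adjusted p = 0.143). With each array left out, the called probes numbered 638, 421, 204 and 1977 without arrays 1, 2, 3 and 4, the members 0 to 1 (1 without array 1, EGFR), and the pathway genes 3 to 11.

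AREG turned from −0.05 to 0.24 under median centring, to 0.0568 under Aquantile, where its other probe was the brightest, and to 0.00472 as the mean of its probes. EREG turned from −0.03 to 0.17 under median centring. HBEGF turned from −0.01 to 0.00551 by the software's ratios and by the series table and to 0.0773 under median centring. With each array left out, ERBB2 ranged from −0.0140 (without array 3) to 0.0328, AREG from −0.106 to 0.00439, EREG from −0.0942 to 0.0255 and HBEGF from −0.0889 to 0.140, these ligands being above 0 without array 1. Apart from the changed probe and the smaller number of arrays, the cause was not tested. Levels centred on each array's median in place of Aquantile, an alternative chosen after seeing the data, gave SDs of 0.71 for EREG, 0.75 for HBEGF and 0.32 for AREG. SB and SCt cells share each array, so the test of the ratio within arrays is itself paired, and the arrays form 1 group with no further replicate block to fit. Single arrays and weak signal (EPGN) limit what could be measured.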

Other observations

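Several transcripts induced by EGFR and ERK signalling also varied from array to array in the mean level of both lines. This was looked at after the levels of the ligands had been seen. Of the 18 genes in that list, 8 had an SD of the shared level among the highest 5% of all genes, among them FOS, FOSL1, DUSP5, DUSP6 and PHLDA1. Of the 20 adaptors and proximal effectors, 0 did, and of the 21 genes for attenuation 3 did (ERRFI1, CBL and SPRY1). DUSP6, the ERK phosphatase, had a shared level of 13.45, 15.17, 14.83 and 14.79 on arrays 1 to 4, low on array 1 as HBEGF was. FOS, with 14.62, 14.84, 14.84 and 13.78, was low on array 4 alone, and FOSL1, with 11.56, 11.80, 11.87 and 12.55, was highest there. The genes therefore did not share a single order of the arrays with the ligands. These levels are those of single probes and were not tested.

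The genes whose 4 log2 ratios lay nearest to those of EGFR by Euclidean distance, out of 23136 others, were LRRC8B (distance 0.06), PDPN (0.11) and CYP4V2 (0.11). Those nearest to BTC were ZNF394 (distance 0.02), TEX19 (0.04) and XKR9 (0.04). Each likeness rests on 4 arrays, and none of these genes was called.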
